A study of Mus musculus with 6 samples.

Results

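The small leucine-rich proteoglycans are 10 genes of this series, *Dcn*, *Bgn*, *Aspn*, *Fmod*, *Lum*, *Prelp*, *Omd*, *Epyc*, *Ogn* and *Chad*, taken by gene symbol from the 47729 genes of the deposited table. All 10 were found, and all 10 had enough reads to be among the 19308 genes tested. The series holds RNA-seq libraries of the upper tibial epiphyses from 3 Control mice (labelled ICR, random-bred on the CD-1 background) and 3 LS1 mice (Longshanks 1, from the same background and selected over generations for a tibia long relative to body mass). The labels name no treatment, all mice were 14 days old and from different families, and the epiphyses of both legs of 1 mouse were pooled into 1 library. The tissue held growth plate, metaphysis, articular cartilage, secondary ossification center and marrow, so in these bulk libraries fewer cells of a type and less RNA per cell cannot be told apart. LS1 is a single selected line, and a difference between 3 mice of each line cannot be assigned to selection rather than to drift.

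Small leucine-rich proteoglycans are secreted proteins with a core of leucine-rich repeats that bends into a curved solenoid. Many carry chondroitin, dermatan or keratan sulfate chains. In cartilage, bone, tendon and skin they sit on collagen fibrils, limit fibril thickness and spacing, and bind growth factors such as TGF-beta. Several of the genes stand side by side in the genome. In mouse *Dcn*, *Lum*, *Kera* and *Epyc* form a run on chromosome 10, *Ecm2*, *Aspn*, *Omd* and *Ogn* one on chromosome 13, and *Optc*, *Prelp* and *Fmod* one on chromosome 1, while *Bgn* (chromosome X) and *Chad* (chromosome 11) stand alone.

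The libraries held 68803249 to 76581954 reads for Control and 82227711 to 88745366 for LS1, so the LS1 libraries were the deeper ones without exception. Each member had at least 3267 reads in each library. LS1 replicate 3 stood apart from the other LS1 libraries on the first principal component (-4.29, against 43.7 and 50.1, with Control from -41.5 to -22.1), and values without it are given for the named family and list genes whose limma call they change. Leaving it out removes the LS1 library nearest to Control on that component, and raised the genes called by limma from 14 to 324. A call gained without it therefore shows dependence on that library and is not support for a difference. Markers of chondrocytes, osteoblasts, fibrous tissue, muscle, erythroid cells, B cells, macrophages and endothelium were all detected, with 0 of these genes at 0 reads in all libraries. The summed erythroid markers were lower in LS1 (783372 to 932643 normalized counts, against 1420181 to 1779635 in Control). Y-linked transcripts were abundant in Control replicate 3 and LS1 replicates 1 and 3 and low in the others, while the labels used here give no sex.

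The family formed an abundant part of the epiphyseal transcriptome. The 10 genes together took 0.358% to 0.381% of the normalized counts of a Control library and 0.393% to 0.487% of those of an LS1 library. Per kilobase of exon, *Fmod* ranked 144 among the 19308 tested genes in Control, *Lum* ranked 150, *Bgn* 192, *Dcn* 277 and *Chad* 402. The other members followed from rank 752 (*Prelp*) to rank 2182 (*Omd*).

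Between LS1 and Control, *Epyc*, *Ogn* and *Aspn* had the largest positive differences of the 10 members and *Chad* had the one negative difference. The mean of *Epyc*, which encodes the growth plate proteoglycan epiphycan, was 1.89 times as high in LS1 as in Control, and that of *Ogn* 1.54 times. *Bgn* and *Dcn*, which encode the abundant matrix proteoglycans biglycan and decorin, were close to equal between the lines, with means in LS1 1.06 and 1.10 times those in Control. With limma, a moderated linear model on log2(normalized count + 1), 0 of the 10 members passed the threshold of 0.05 on adjusted p, against 0.0725% of all genes tested (0.0104% higher and 0.0622% lower in LS1). The members with an unadjusted p-value under 0.05 were *Epyc*, *Ogn* and *Aspn*, all higher in LS1, or 3 of 10 higher and 0 of 10 lower, against 7.08% and 5.86% of all genes. The edgeR test and limma-voom on the recovered reads called 0 members, and DESeq2 called 2, *Epyc* and *Ogn*, against 2.58% of the genes it tested (1.56% higher). For DESeq2 these shares are of the 17796 genes to which it gave an adjusted p. Without LS1 replicate 3 limma called 1, *Epyc*, against 1.68% of genes (1.17% higher). In 2 of 10 members, *Epyc* and *Ogn*, the lines did not overlap with LS1 the higher, against 10.3% of all genes, and in 0 of 10 with LS1 the lower, against 8.94%. The log2 fold change was above 0 in 9 of 10 members, with a median of 0.28, against 50.7% and a median of 0.0054 over all genes tested. The members share libraries and in part the same cells, so their directions are not independent of each other.

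**Figure D1:**
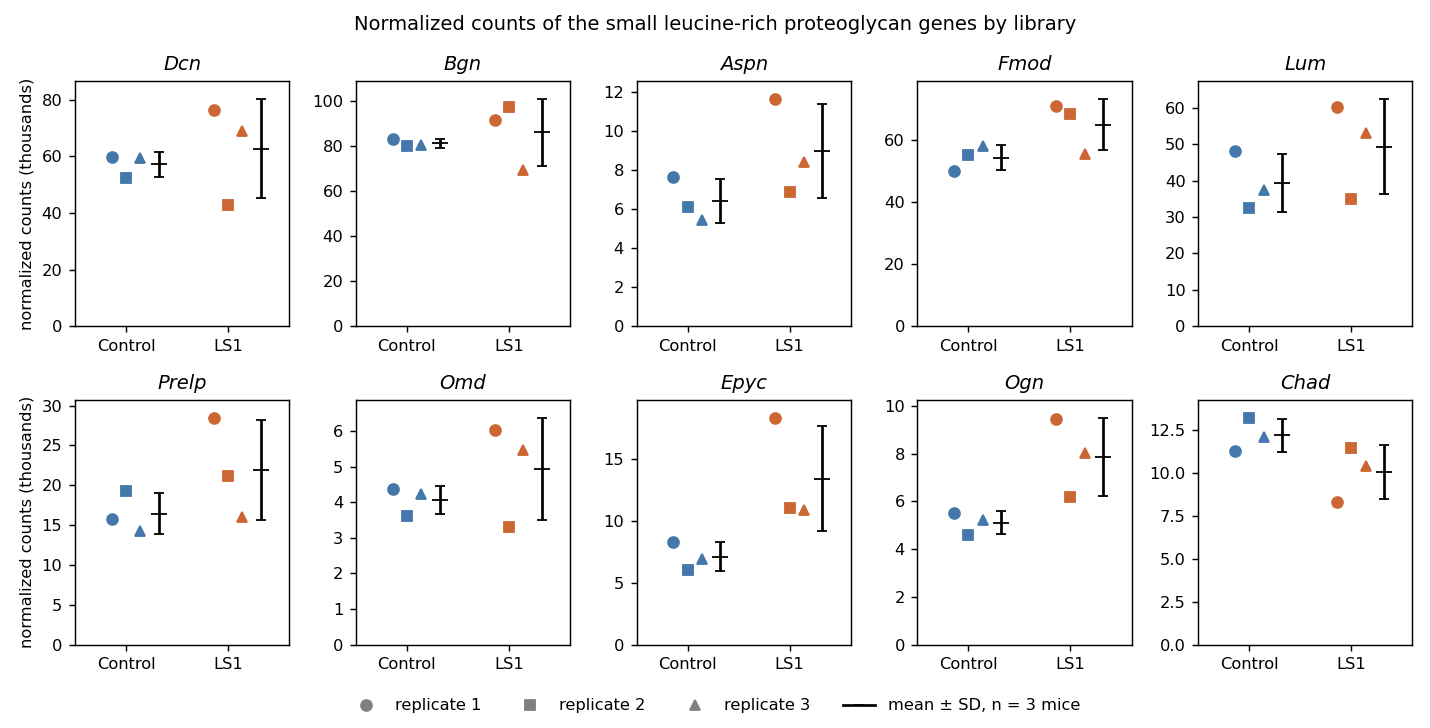
Normalized counts (linear axis from 0, scaled as labelled) of the 10 genes in the 3 Control and 3 LS1 libraries, with the mean and SD of each line beside the points. *Epyc* and *Ogn* are the genes whose LS1 libraries all lie above all Control libraries, and in *Dcn*, *Bgn* and *Omd* the LS1 libraries spread on both sides of Control.

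*Epyc* (ENSMUSG00000019936) lies on the plus strand of chromosome 10 of GRCm38 from 97644068 to 97682454. The Control mice had 8319, 6049.7 and 6933 normalized counts, and the LS1 mice 18332, 11055 and 10834. A normalized count is the number of reads of a gene divided by the size factor of its library. The lowest LS1 library exceeded the highest Control library, and LS1 replicate 1 was well above the other LS1 libraries. Control averaged 7101 ± 1144 and LS1 13407 ± 4267 (SD, n = 3 mice each). That is a log2 fold change of 0.88 (SE 0.21, 95% interval from 0.43 to 1.34, limma adjusted p = 0.184). DESeq2 gave 0.91 with an adjusted p of 0.00618, and limma without LS1 replicate 3 gave 1.02 with an adjusted p of 0.0406. That was the high end of the left-out range, whose low end was 0.64, without LS1 replicate 1 (limma adjusted p = 0.146). The largest limma adjusted p with a library left out was 0.509, without Control replicate 2. The study had picked *Epyc* for follow-up from its own analysis of these libraries, so this difference is not independent evidence. An opposite-strand noncoding gene, *Gm10754*, shares 1041 of the 2561 exon bases of *Epyc* and is listed at 0 in all libraries.

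*Epyc* is a cartilage gene, and the 9 general chondrocyte markers also had higher mean values in LS1, while hypertrophic chondrocyte markers were mixed. With limma 0 of 9 chondrocyte markers passed on adjusted p and 7 of 9 on unadjusted p, all higher, against 0.0725% and 7.08% of all genes. Their log2 fold change was above 0 in 9 of 9, against 50.7% of all genes, with a median of 0.56. Their summed level was 1904502 to 2192819.5 normalized counts in Control libraries, against 2465287 to 2968944 for LS1. Of 5 hypertrophic chondrocyte markers, 3 had a log2 fold change above 0 and 2 below, with a median of 0.34. These summed to 722437 to 1081325 normalized counts in Control libraries, against 918754 to 1036620 for LS1, so the lines overlapped. Limma without LS1 replicate 3 gave *Hapln1*, the cartilage link protein gene, an adjusted p of 0.0193, against 0.159 with all libraries. Like *Epyc*, *Hapln1* and the marker *Matn3* had been picked by the study for follow-up from these libraries. So had *Col10a1* and *Runx2* of the hypertrophic markers. On the log2 scale the ratio of *Epyc* to *Hapln1* differed by -0.05 (LS1 minus Control) (exact permutation test, two-sided p = 0.8, n = 3 mice per line). The ratio of *Epyc* to *Col2a1* differed by 0.65 (exact permutation test, two-sided p = 0.2, n = 3) and that to *Acan* by 0.39 (exact permutation test, two-sided p = 0.5, n = 3). The exact permutation test of 3 mice against 3 cannot give a p below 0.1. These pairs, and the other ratios given here, were chosen after the values were seen. The part of the chondrocyte content in the difference of *Epyc* was not tested.

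*Ogn* (ENSMUSG00000021390), from 49608046 to 49624501 on the plus strand of chromosome 13, encodes osteoglycin, also called mimecan. It had 5533, 4587 and 5216 normalized counts in Control and 9439, 6180.5 and 8019.8 in LS1. The lines did not overlap, and LS1 replicate 2 was nearest to Control. The means of 5112 ± 481 and 7880 ± 1634 (SD, n = 3 mice each) gave a log2 fold change of 0.61 (SE 0.16, 95% interval from 0.24 to 0.97, limma adjusted p = 0.223). Left-out libraries moved it between 0.47 and 0.77, and DESeq2 gave an adjusted p of 0.0448.

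The bases before the start sites of *Epyc*, *Ogn* and *Chad* are shown because these genes had the largest differences in either direction. Of the 10 members, 8 had an entry in the RefSeq table of GRCm38.p6, and each run is the 250 bases before the RefSeq start, 5′ to 3′ on the strand of the gene. They are chr10:97643818-97644067, chr13:49607765-49608014 and chr11:94564797-94565046, all plus strand. Capitals mark every match on either strand to a TATA box (searched as TATAAA), to the first SOX type site (searched as AACAAT), to the second SOX type site (searched as ACAAAG) or to a RUNX core (searched as TGTGGT).
Epyc: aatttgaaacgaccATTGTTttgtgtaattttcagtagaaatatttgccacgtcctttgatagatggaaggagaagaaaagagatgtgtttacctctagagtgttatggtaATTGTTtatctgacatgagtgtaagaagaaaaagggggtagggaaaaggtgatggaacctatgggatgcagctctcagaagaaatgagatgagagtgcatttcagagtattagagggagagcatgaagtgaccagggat
Ogn: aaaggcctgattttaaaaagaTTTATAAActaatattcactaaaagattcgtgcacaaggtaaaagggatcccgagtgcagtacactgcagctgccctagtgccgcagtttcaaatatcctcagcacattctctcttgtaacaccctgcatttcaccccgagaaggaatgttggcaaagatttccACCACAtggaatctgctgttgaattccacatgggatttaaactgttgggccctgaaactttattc
Chad: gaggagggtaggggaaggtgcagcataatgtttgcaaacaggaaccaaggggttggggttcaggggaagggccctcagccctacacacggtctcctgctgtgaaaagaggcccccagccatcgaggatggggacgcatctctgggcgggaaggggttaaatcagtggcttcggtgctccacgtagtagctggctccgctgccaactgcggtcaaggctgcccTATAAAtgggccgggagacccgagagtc
*Epyc* held the first SOX type site on the opposite strand at 236 and at 139 bases before its start. *Chad* held the TATA box on its own strand at 28 bases before its start. *Ogn* held TATA boxes on overlapping bases of both strands, from 229 and 227 bases before its start, and a RUNX core on the opposite strand at 65. Over the 8 members with an entry, 3 held the TATA box (*Ogn*, *Chad*, *Aspn*), 3 the first SOX type site (*Epyc*, *Prelp*, *Aspn*), 0 the second and 1 the RUNX core. Among all 32851 starts in the table, windows of the same length held the TATA box in 12.4%, the SOX type sites in 9.42% and 16.5%, and the RUNX core in 14%. A match is a match of letters and not a shown binding site.

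*Aspn* (ENSMUSG00000021388, chromosome 13 from 49544443 to 49567565) encodes asporin, a close relative of decorin that has a run of aspartates in place of a chain attachment site and that binds TGF-beta. Its normalized counts were 7654, 6092 and 5454 in Control and 11644, 6885 and 8432 in LS1. LS1 replicates 1 and 3 were above all Control libraries, and LS1 replicate 2 was within their range. This gave *Aspn* a log2 fold change of 0.47 (SE 0.20, 95% interval from 0.04 to 0.90, limma adjusted p = 0.345).

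*Dcn* (ENSMUSG00000019929, chromosome 10 from 97479609 to 97518143) encodes decorin, which carries a single glycosaminoglycan chain and coats type I collagen fibrils. It had 59933, 52231 and 59348 normalized counts in Control and 76377, 42884 and 68862 in LS1. LS1 replicates 1 and 3 were above the Control range and LS1 replicate 2 was below it. Control averaged 57171 ± 4288 and LS1 62708 ± 17574 (SD, n = 3 mice each). For *Dcn* the log2 fold change was 0.09 (SE 0.20, 95% interval from -0.34 to 0.53, limma adjusted p = 0.877), and without LS1 replicate 1 it was -0.07.

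*Bgn* (ENSMUSG00000031375, chromosome X from 73483602 to 73495933) encodes biglycan, the closest relative of decorin, a matrix protein of bone and cartilage that can also signal through Toll-like receptors. Its Control libraries were the most alike of any member, at 83330, 79915 and 80540.1 normalized counts, a coefficient of variation of 2.24%. The LS1 libraries, at 91738, 97366 and 69397, lay on both sides of them, with LS1 replicate 3 the low one. For *Bgn* it was 0.07 on the log2 scale (SE 0.15, 95% interval from -0.26 to 0.40, limma adjusted p = 0.879), and it was -0.03 without LS1 replicate 2.

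*Fmod* (ENSMUSG00000041559, chromosome 1 from 134037254 to 134048277) encodes fibromodulin, a keratan sulfate proteoglycan that binds collagen fibrils and lysyl oxidase. It had 49911, 55349 and 57981 normalized counts in Control and 70965, 68478 and 55648 in LS1. LS1 replicates 1 and 2 were above the Control libraries and LS1 replicate 3 was within their range. The difference in log2 level was 0.25 (SE 0.14, 95% interval from -0.06 to 0.56, limma adjusted p = 0.479).

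*Lum* (ENSMUSG00000036446, chromosome 10 from 97565128 to 97572703) encodes lumican, which shares a collagen binding site with fibromodulin. Its normalized counts were 48132, 32327 and 37450.1 in Control and 60178, 34870 and 52985 in LS1. LS1 replicate 2 fell between the Control libraries, whose range was wide in this gene. On the log2 scale LS1 was higher by 0.31 (SE 0.21, 95% interval from -0.16 to 0.78, limma adjusted p = 0.562).

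*Prelp* (ENSMUSG00000041577, minus strand of chromosome 1 from 133910304 to 133921414) encodes a protein that ties collagen to heparan sulfate of basement membranes and the cell surface. It had 15716, 19293 and 14260.4 normalized counts in Control and 28480, 21220.1 and 15964 in LS1. LS1 replicate 3 fell between the Control libraries and LS1 replicate 1 was far above them. The mean log2 difference was 0.39 (SE 0.20, 95% interval from -0.06 to 0.83, limma adjusted p = 0.449), and it was 0.59 without LS1 replicate 3 and 0.18 without LS1 replicate 1. An antisense gene, *Gm15851*, shares 350 exon bases with *Prelp* and had a mean of 4.43 normalized counts in Control and 6.57 in LS1.

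*Omd* (ENSMUSG00000048368, chromosome 13 from 49582462 to 49592822) encodes osteomodulin, a keratan sulfate proteoglycan of mineralized bone matrix. Its normalized counts were 4371, 3622 and 4235 in Control and 6037, 3315 and 5485 in LS1. As in *Dcn*, LS1 replicate 2 was below all Control libraries while the other LS1 libraries were above them. For *Omd* the log2 fold change was 0.24 (SE 0.21, 95% interval from -0.22 to 0.69, limma adjusted p = 0.660).

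*Chad* (ENSMUSG00000039084, chromosome 11 from 94565047 to 94569127) encodes chondroadherin, a cartilage protein without a glycosaminoglycan chain that binds collagen and integrins. It had 11308, 13241 and 12100.3 normalized counts in Control and 8345, 11446 and 10444 in LS1. Both LS1 replicates 1 and 3 were below all Control libraries, and LS1 replicate 2 was within their range. The log2 fold change was -0.29 (SE 0.15, 95% interval from -0.61 to 0.03, limma adjusted p = 0.438). It stayed between -0.38 and -0.16 with each library left out.

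**Figure D2:**
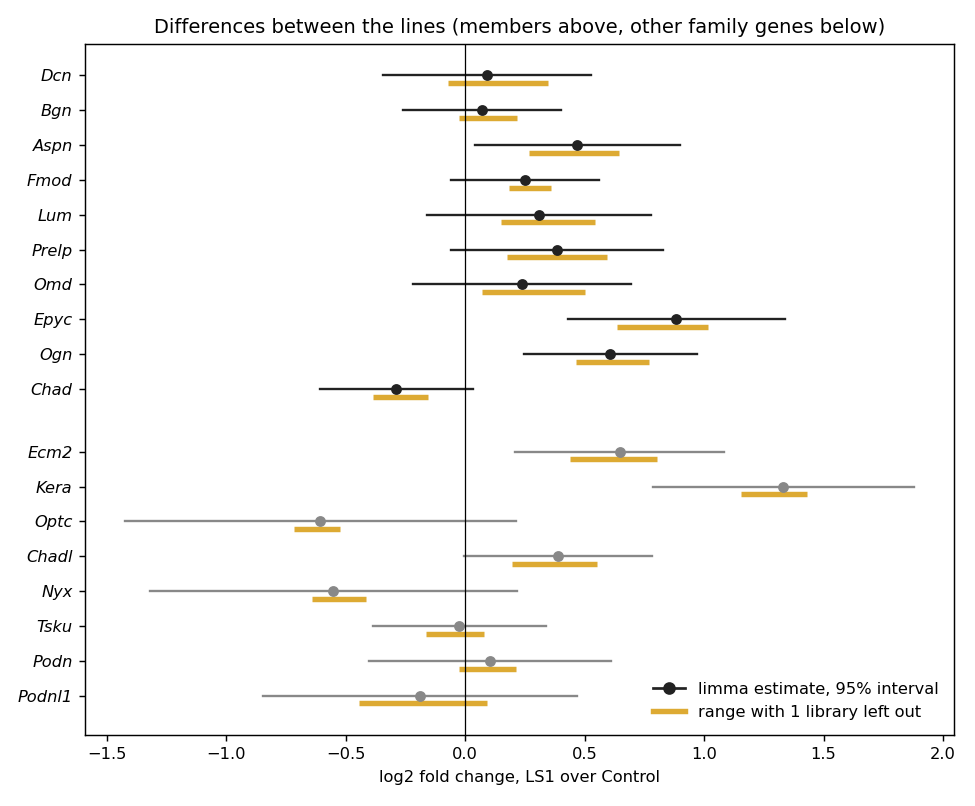
Log2 fold change of LS1 over Control (horizontal axis) for the 10 members and for 8 other genes of the family, with the 95% interval from limma and, below each, the range when 1 library is left out. Of the members, *Epyc*, *Ogn* and *Aspn* have intervals above 0, and *Chad* is the one on the negative side.

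The fold changes of *Chad* and *Epyc*, both cartilage genes, had opposite signs, and neither passed limma on adjusted p. Their ratio was chosen after the values were seen. On the log2 scale the ratio of *Epyc* to *Chad* was -0.44, -1.13 and -0.80 in Control and 1.14, -0.05 and 0.05 in LS1. The groups did not overlap and differed by 1.17 (p = 0.1, two-sided exact permutation test, its smallest possible, n = 3 mice per line). The ratio of *Chad* to *Col2a1* was nearly constant within each line, at -6.89, -6.91 and -6.96 in Control and -7.46, -7.51 and -7.37 in LS1. It was lower in LS1 by 0.52 without overlap (exact permutation test, two-sided p = 0.1, n = 3). This ratio too was chosen after the values were seen, so its separation is a description.

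The members also varied together from library to library. In LS1, *Dcn*, *Lum*, *Omd*, *Ogn* and *Aspn* were each highest in replicate 1 and lowest in replicate 2. In Control, *Dcn*, *Lum*, *Omd*, *Ogn*, *Epyc* and *Bgn* were highest in replicate 1 and lowest in replicate 2. *Chad* had the reverse order in both lines. *Bgn*, *Fmod*, *Prelp* and *Epyc* had LS1 replicate 3 as their lowest LS1 library. As a description over 6 libraries, the deviations from the group means of *Dcn* and *Omd* had a correlation of 0.998, those of *Epyc* and *Aspn* 0.858, those of *Bgn* and *Fmod* 0.764 and those of *Epyc* and *Chad* -0.956. All genes of a library share its size factor and its tissue sample. The grouping was made after the values were seen. The tendon and fibrous tissue markers, of which 9 of 10 had a log2 fold change above 0 (50.7% of all genes did) with a median of 0.38, summed to 180420 to 213886 normalized counts in Control libraries, against 239304 to 257107 for LS1. Skeletal muscle markers, 7 of 7 with a log2 fold change below 0, summed to 8374 to 20531 in Control libraries, against 4011 to 11984 for LS1. Among the muscle markers, *Mb* had been picked by the study for follow-up from these libraries. Y-linked transcripts were low in LS1 replicate 2, where *Dcn*, *Lum*, *Omd*, *Ogn* and *Aspn* dip, and abundant in LS1 replicates 1 and 3. In Control they were abundant in replicate 3 only. With Y-linked expression as a covariate, the limma log2 fold changes of *Dcn*, *Lum* and *Omd* were -0.05, 0.20 and 0.09. Those of *Ogn* and *Aspn* were 0.52 and 0.43. The part of Y-linked expression, or of the tissue taken with each epiphysis, in these patterns was not tested.

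**Figure D3:**
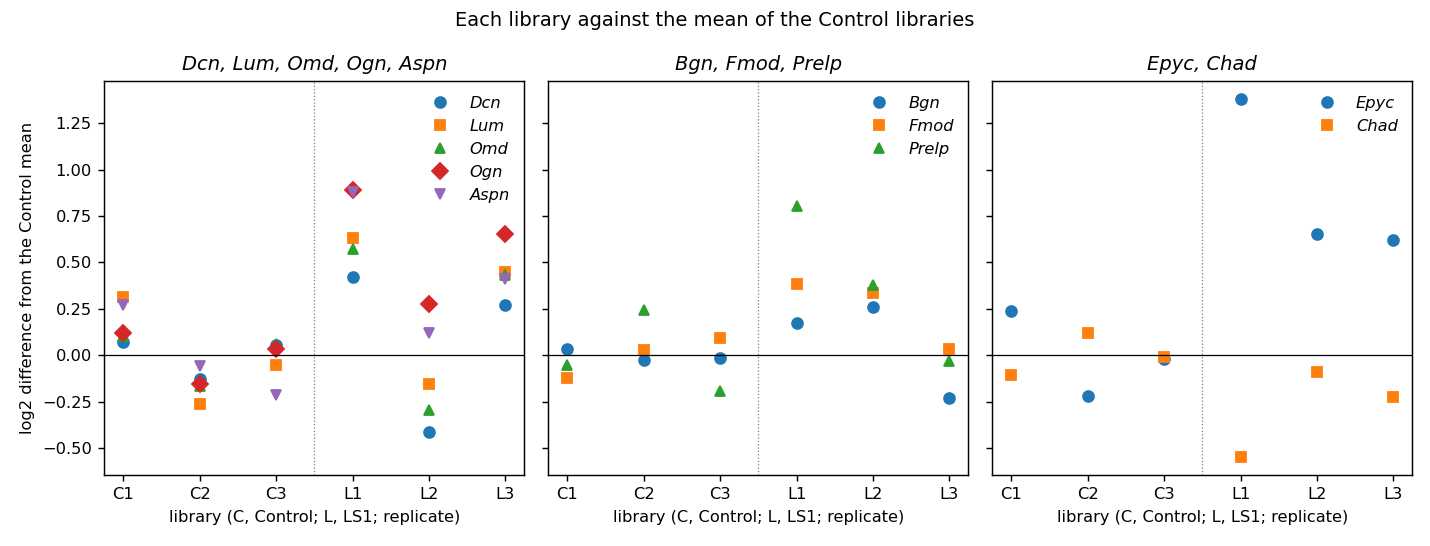
Log2 difference of each library from the mean of the Control libraries, with Control libraries left and LS1 libraries right of the dotted line. *Dcn*, *Lum*, *Omd*, *Ogn* and *Aspn* dip together in LS1 replicate 2, *Bgn* is lowest in LS1 replicate 3, and *Epyc* and *Chad* mirror each other.

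The genomic clusters were read for neighbours, since they hold family genes that are not among the 10. On chromosome 10, in a run of 202846 bases, the order was *Dcn*, *Lum*, *Kera* and *Epyc*. *Lum* lay near the middle, 85519 to 93094 bases from the left end, and *Kera* 127270 to 134083 bases from it. *Kera* encodes keratocan, best known from the cornea, and had few reads here, with 136, 122 and 158 normalized counts in Control and 446, 313 and 304 in LS1. The LS1 range lay above that of Control, and the log2 fold change was 1.33 (SE 0.25). Its adjusted p was 0.120 from limma, 0.000168 from DESeq2 and 0.0273 from limma without LS1 replicate 3. The ratio of *Kera* to *Lum* on the log2 scale was higher in LS1 by 1.02 and that of *Epyc* to *Lum* by 0.57, both without overlap (exact permutation test, two-sided p = 0.1, n = 3 mice per line). The ratio of *Lum* to *Dcn* overlapped between the lines, with a difference of 0.22 (exact permutation test, two-sided p = 0.3, n = 3). The nearest tested genes outside the run, *Btg1* (0.22) and *Atp2b1* (0.25), had adjusted p-values of 0.520 and 0.591 from limma.

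On chromosome 13, in 119692 bases, *Ecm2*, which encodes a matrix protein with leucine-rich repeats, had 3126, 2961 and 2242 normalized counts in Control and 5745, 3996 and 3466 in LS1. Its LS1 libraries were all above Control, and the log2 fold change was 0.65 (SE 0.20, limma adjusted p = 0.256). With *Aspn* at 0.47, *Omd* at 0.24 and *Ogn* at 0.61, all family genes of that run had positive log2 fold changes. *Cenpp*, a centromere protein gene that spans the run on the opposite strand, was at -0.18, and the flanking *Ippk* and *Nol8* were at 0.10 and 0.03. *Ogn* against *Omd*, which are adjacent, had a log2 ratio of 0.34, 0.34 and 0.30 in Control and 0.64, 0.90 and 0.55 in LS1, without overlap (exact permutation test, two-sided p = 0.1, n = 3). *Cenpp* shares 7 exon bases with *Aspn* and 0 with *Omd* and *Ogn*.

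On chromosome 1, in 151079 bases, *Prelp* (0.39) and *Fmod* (0.25) were accompanied by *Optc*, the eye gene opticin, at -0.61 with 32.5 reads on average. Its flanking genes *Atp2b4* and *Btg2* were at -0.28 and -0.18. *Bgn* lay between *Haus7* (-0.17) and *Dusp9* (-0.29), and *Chad* lay in the gene body of *Acsf2* (-0.17, opposite strand, 0 shared exon bases) between *Rsad1* (0.15) and *Lrrc59* (-0.01). The noncoding *Gm1627* inside the chromosome 1 run was at -0.49. With limma, none of these neighbours passed on adjusted p.

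**Figure D4:**
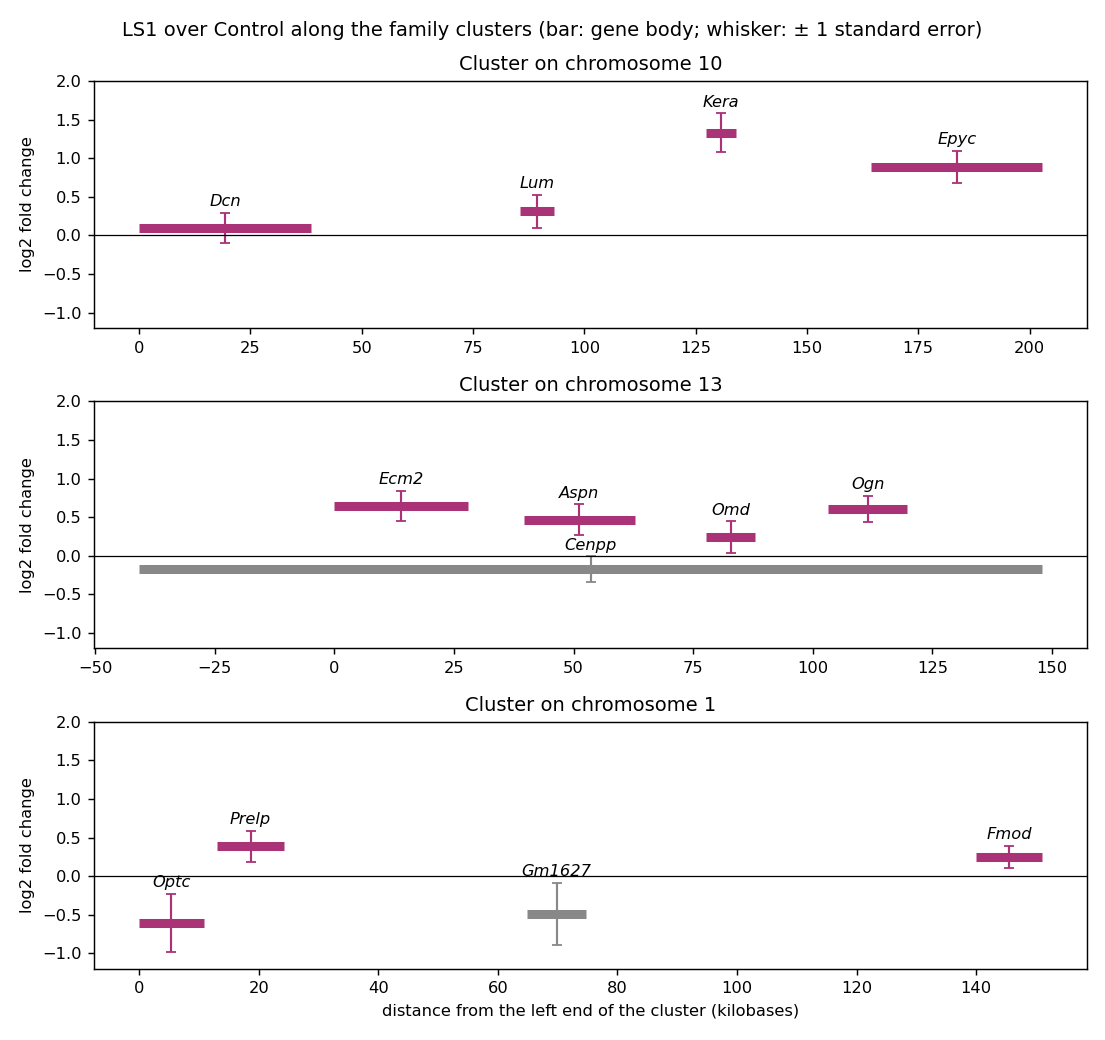
Log2 fold change of LS1 over Control (vertical axis) along the clusters on chromosomes 10, 13 and 1, with distance in kilobases from the left end of each cluster. Bars span gene bodies, whiskers are 1 standard error, and family genes are in purple with other genes in grey. On chromosome 10 *Kera* and *Epyc* lie above *Dcn* and *Lum*.

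Of the 8 other family genes, all 8 were tested. With limma 0 of them passed on adjusted p and 2, *Kera* and *Ecm2*, on unadjusted p, both higher, against 0.0725% and 7.08% of all genes. DESeq2 called *Kera*, against 2.58% of the genes it tested. Their median log2 fold change was 0.04, against 0.0054 over all genes tested, and 4 of 8 were above 0. *Tsku*, which encodes the secreted signaling modulator tsukushi, had 4697 ± 689 normalized counts in Control and 4634.5 ± 830.1 in LS1 (SD, n = 3 mice each). Its log2 fold change was -0.02, with a 95% interval from -0.38 to 0.34. *Chadl*, the chondroadherin-like gene, had a log2 fold change of 0.39 with its LS1 libraries all above Control, in contrast to *Chad*, but it shares 1023 exon bases with *L3mbtl2* on the opposite strand. *Podnl1* and *Podn*, the podocan genes, were at -0.19 and 0.11, and *Nyx*, the retinal gene nyctalopin, at -0.55 with 42.2 reads on average. In 3 of 8 (*Kera*, *Ecm2*, *Chadl*) the lines did not overlap with LS1 the higher, against 10.3% of all genes, and in 2 of 8 (*Optc*, *Nyx*) with LS1 the lower, against 8.94%.

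The composition of the family per kilobase of exon is a description of levels within a library. *Fmod* and *Lum* held the largest shares of the summed level, 21.5% ± 2.36 and 20.8% ± 3.32 in Control (SD, n = 3 mice) and 21.7% ± 3.04 and 21.98% ± 4.12 in LS1. In 6 of 6 libraries *Fmod* stayed within the top 2 ranks and *Omd* and *Ogn* were the lowest. *Fmod* and *Lum* changed places between libraries, as did *Bgn* and *Dcn* in LS1, so the order of each pair was not the same in every library. In the Control libraries *Bgn* was above *Dcn* throughout, with 17.4% ± 0.41 against 12.8% ± 0.58 (SD, n = 3), and the places changed in LS1 replicate 3. The share of *Epyc* was 3.60% ± 0.42 in Control and 5.66% ± 0.99 in LS1, and that of *Chad* 9.51% ± 1.17 and 6.76% ± 1.85 (SD, n = 3). The order depends on the length used. The annotated exons of *Bgn* and *Dcn* add up to 6099 and 5838 bases, against coding lengths of 1107 and 1062, and per coding length *Bgn* and *Dcn* came first, with 26.8% and 19.8%.

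**Figure D5:**
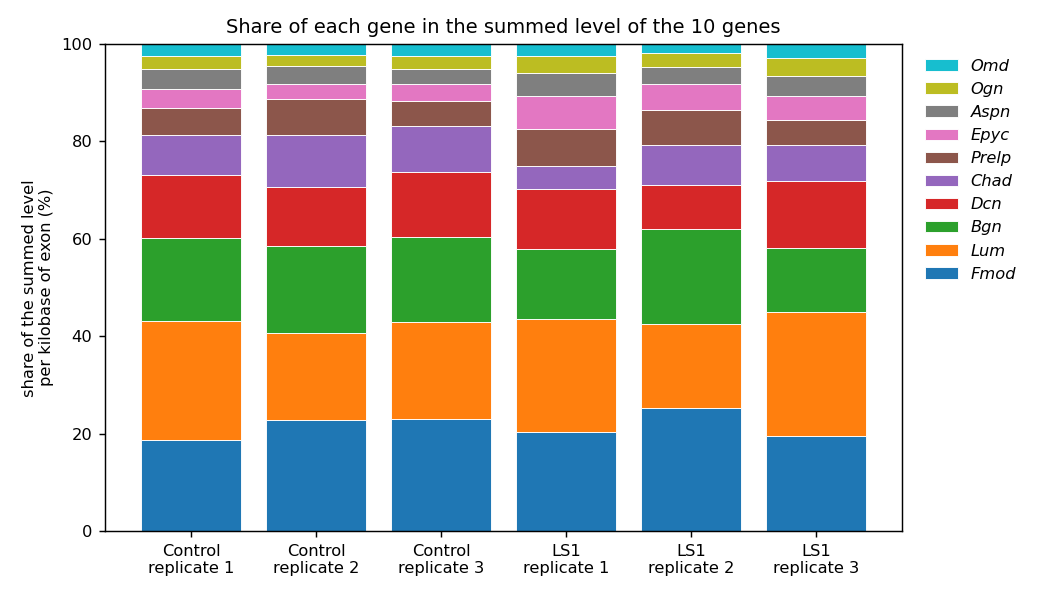
Share (percent) of each gene in the summed level per kilobase of exon of the 10 genes, for each of the 6 libraries. *Fmod*, *Lum*, *Bgn* and *Dcn* fill most of each bar, and the band of *Epyc* is wider and that of *Chad* narrower in LS1.

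Genes that build the chains, cleave the core proteins or bind them were read from lists chosen for the family. Of 10 enzymes that start glycosaminoglycan chains or make dermatan sulfate, limma called 0 on adjusted p and 3 on unadjusted p, against 12.9% of all genes, with a median log2 fold change of 0.28. These were *Xylt1* (0.56), which adds the first sugar to the core protein, the linker kinase *Fam20b* (0.51) and the dermatan sulfate epimerase *Dsel* (0.57). In 4 of 10 genes of the list, *Fam20b* and *Dsel* among them, every LS1 library was above every Control library, against 10.3% of all genes. In 0 of 10 every LS1 library was below, against 8.94%. *Xylt1* had an adjusted p of 0.0273 from limma without LS1 replicate 3, against 0.276 with all libraries. Of 9 genes for keratan sulfate and tyrosine sulfation, 0 had an unadjusted p-value under 0.05, and the median was 0.21. The one farthest from 0 was *B3gnt2* at -0.68 (SE 0.41), with 52.2 ± 0.901 normalized counts in Control and 34.9 ± 17.9 in LS1 (SD, n = 3 mice).

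Of 13 genes for proteases that act on these proteins or their cofactors, 12 were tested. *Tll1*, a tolloid protease, had a log2 fold change of 1.03 (adjusted p = 0.194 from limma), the procollagen proteinase enhancer *Pcolce2* 0.50 (adjusted p = 0.187) and the stromelysin *Mmp3* 0.92 (adjusted p = 0.213). In these 3 of 12 genes the lines did not overlap with LS1 the higher, against 10.3% of all genes. DESeq2 called each of them, against 2.58% of the genes it tested. The median over the list was 0.07. *Pcolce2* was the abundant one, with 14779 ± 741 normalized counts in Control and 20973 ± 1247 in LS1 (SD, n = 3).

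Of 16 collagens that form or decorate fibrils, *Col3a1* (0.37) and the chains of type IX collagen, *Col9a1* (0.72), *Col9a2* (0.58) and *Col9a3* (0.40), passed limma on unadjusted p (4 of 16 higher, against 7.08% of all genes) and 0 of 16 on adjusted p. Non-overlap was seen in 5 of 16 with LS1 the higher, these genes and *Col12a1*, against 10.3% of all genes, and in 1 of 16 with LS1 the lower, *Col1a1*, against 8.94%. DESeq2 called *Col9a1* and *Col9a2*, against 2.58% of the genes it tested. Without LS1 replicate 3 limma gave *Col9a1* an adjusted p of 0.0235, against 0.125 with all libraries. *Col1a1* and *Col1a2*, the type I chains on which decorin sits, were both at -0.19 (limma adjusted p = 0.616 and 0.640), and are named after their values were seen.

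Of 16 ligands, receptors and partners of the family, 15 had a log2 fold change above 0, against 50.7% of all genes, with a median of 0.22. With limma 0 of 16 passed on adjusted p and 4 of 16 on unadjusted p, all higher, against 7.08% of all genes. *Tlr2* and *Tlr4*, which encode Toll-like receptors that bind soluble biglycan, were at 0.89 and 0.68 with LS1 libraries all above Control (adjusted p = 0.153 and 0.177 from limma, 0.00168 and 0.00610 from DESeq2). Without LS1 replicate 3 limma gave *Tlr2* an adjusted p of 0.0091. *Itga1*, a collagen receptor chain, was at 0.66 with LS1 libraries all above Control (adjusted p = 0.194 from limma, 0.0220 from DESeq2) and *Tgfb2* at 0.52 (adjusted p = 0.301 from limma). The study had also picked *Itga1* for follow-up from these libraries. LS1 libraries were all above Control in 7 of 16 genes of the list, against 10.3% of all genes, and all below in 0, against 8.94%. Over all genes it tested, DESeq2 called 2.58%. Macrophage markers, whose cells also express *Tlr2* and *Tlr4*, were 6 of 6 above 0 with a median of 0.23, and summed to 32802 to 48209 normalized counts in Control libraries, against 45410 to 61901 for LS1. Among these markers, *Mpeg1* had also been picked by the study for follow-up from these libraries. The part of macrophages in the values of *Tlr2* and *Tlr4* was not tested.

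The genes whose log2 values followed each member most closely over the 6 libraries were taken from 14770 genes with a mean of at least 100 reads. For *Epyc* these were *Slc30a4*, *Nus1* and *Rab15*, for *Ogn* *Tmod3*, *Sdc2* and *Robo1*, and for *Aspn* *Chrdl1*, *Trdmt1* and *Uqcrh-ps1*. For *Chad* they were *Safb2*, *Gm13047* and *Gtf3c1*, for *Prelp* *Zfp182*, *Atp6v0a4* and *Slc26a2*, and for *Lum* *Map10* and *Ust*. For *Dcn* they were *1700047M11Rik*, *Fgfr1op2* and *Pfdn4*, for *Omd* *Gm15793*, *Zfp976* and *Gm31520*, for *Bgn* *Il15ra* and *Ikzf4*, and for *Fmod* *Hsd17b11*, *C3ar1* and *5430427O19Rik*. The correlation was between 0.976 (*Ikzf4* with *Bgn*) and 0.999 (*Slc30a4* with *Epyc*). Over 6 libraries many of the compared genes reach high values, so this is a description of likeness only.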

How the data were processed

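Per the labels and the methods of the study, the authors aligned reads of polyadenylated RNA to GRCm38 (HISAT2 2.0.2), assigned them to Ensembl release 84 genes (featureCounts 1.4.6) and used DESeq2. The deposited values are a signal per gene, the read count divided by 1 size factor per library. Dividing by the value of 1 read gave whole numbers (tolerance 0.01) for 100% of values in each library. For Control replicate 1 that step was 1.009, close to 1, but a deposited value such as 8319.07 for *Epyc* was not itself whole. Whether counting used strand is not given in the sources used here.

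The test (limma 3.58.1, R 4.3.3, variance trend, robust moderation) took log2(value + 1) of the 19308 of 47729 genes whose mean was 20 recovered reads or more. A fold change on this scale understates that of genes with few reads. The p-values were Benjamini-Hochberg adjusted over all tested genes, with a threshold of 0.05. DESeq2 1.42.0, edgeR 4.0.16 and limma-voom on the recovered reads, another scaling, filters, pseudocounts, a block, a Y-linked covariate and each library left out were alternatives. The scripts were tested on simulated data. GENCODE M21 (GRCm38) gave symbols and coordinates, and 99.1% of identifiers matched.

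The members, lists, motifs and tests were chosen with earlier results of these data known. Named genes were the members, the other family genes, genes inside or next to the clusters, list genes with an unadjusted p-value under 0.05 (or else the one farthest from 0), and the 3 genes most like each member, of which some are not reported here. Ratios and motifs were added later. Levels are per kilobase of annotated exon, and the depth of at least 68803249 reads leaves mouse-to-mouse spread, not counting, as the main error for the members. Each library is 1 mouse.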

Additional observations from a re-analysis of the deposited data

How the results depend on the processing

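Each of the 10 log2 fold changes was recomputed under 17 alternatives. Of these 170 values, 164 kept their direction and their side of the threshold. Those that gained a call were *Epyc* with DESeq2 and without LS1 replicate 3, and *Ogn* with DESeq2. The direction turned for *Dcn* without LS1 replicate 1 (-0.070, with 0.346 at the other end of its left-out range, without LS1 replicate 2) and with Y-linked expression as a covariate (-0.047), and for *Bgn* without LS1 replicate 2 (-0.026). Each of these was within 1 standard error of 0. The cause was not tested.

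The number of members called was 0 with limma and 2 with DESeq2, and between 0 and 1 with each library left out. The number of all genes called was 14 with limma, 7 with edgeR, 5 with edgeR on 5 libraries (an alternative chosen after seeing the data), 8 with limma-voom, 459 with DESeq2, 45 without a filter and 9 with a mean of at least 100 reads. It ran from 5 (without Control replicate 2) to 324 (without LS1 replicate 3) with each library left out. The cause was not tested, apart from the other sets of genes tested under the filters.

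The letter A, B or C in the sample names is shared between the lines, and its meaning is not given. Replicates 1, 2 and 3 carry A, B and C in both lines, so the order that *Dcn*, *Lum*, *Omd* and *Ogn* had in both lines is also an order by letter. With it as a replicate block, limma called 12 genes and 0 members. The standard error of each member was smaller with the block, as for *Epyc* (0.12, against 0.21) and *Ogn* (0.11, against 0.16). Their limma adjusted p-values with the block were 0.0778 and 0.0876. Over all tested genes, deviations from the group means correlated by 0.05, 0.02 and 0.22 between libraries of the same letter. Not every library was most like its own letter, so the letters were not taken as pairs in the main test. Whether they pair the mice cannot be told from the labels.

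With the longest coding length of the annotation in place of the exon length (chosen after seeing the data), shares of the summed level became 19.8% for *Dcn*, 26.8% for *Bgn*, 18.7% for *Fmod*, 15.3% for *Lum*, 1.24% for *Omd*, 3.75% for *Chad* and 2.38% for *Aspn*. The length divisor alone changes here. The lengths of RefSeq proteins were not used, and that alternative was not run.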
